A study of Mus musculus with 18 samples.

Results

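5-hydroxymethylcytosine (5hmC) was measured at single cytosines in double positive (DP) thymocytes, the stage of T-cell development in which both CD4 and CD8 are carried on the cell surface, by comparing bisulfite sequencing (BS-seq) with oxidative bisulfite sequencing (oxBS-seq). The libraries were the 3 DP BS-seq and the 3 DP oxBS-seq libraries among the 18 libraries of the series, in which CD4 single positive thymocytes and peripheral naive CD4 T cells were measured in the same way. Every CpG cytosine of the mouse genome with at least 10 reads in each of the 6 DP libraries was taken, which gave 69 CpG cytosines among 461 cytosines of all contexts. The cells came from female C57/BL6 mice aged 4 to 6 weeks and were sorted as CD4+CD8 int/hi, a gate that could not be checked against marker genes because only DNA modification was measured. No mouse carried a transgene or a deletion according to the labels. Each DNA was divided, one portion was oxidised with KRuO4, and both portions then went through bisulfite conversion and PCR of chosen regions. The replicate number therefore joins a BS library to the oxBS library of the same DNA, and the study describes the replicates as separate isolations from independent mice.

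DNA methyltransferases write 5-methylcytosine (5mC) mainly at CpG, a sequence that reads the same on both strands, so that each CpG dyad holds one cytosine on each strand. TET enzymes oxidise 5mC to 5hmC and further to 5-formylcytosine and 5-carboxylcytosine, a route by which methylation can be lost. Bisulfite turns unmodified cytosine into a base that is read as T and leaves 5mC and 5hmC to be read as C, whereas after KRuO4 oxidation 5hmC is also read as T. The unconverted share of reads is therefore 5mC plus 5hmC in BS-seq and 5mC in oxBS-seq, and the BS share minus the oxBS share, in percentage points, estimates 5hmC. 5-formylcytosine and 5-carboxylcytosine are read as T in both assays and count here as unmodified.

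The 69 CpG cytosines lay in 5 regions of the mm9 mouse genome, called loci here. The forward strand of 4 of them is given from NCBIM37, the same assembly as mm9, from 8 bases before the first measured CpG to 8 bases after the last, to show where the CpGs lie and which strand each described cytosine is on. Capitals mark every CG, and the cytosine of the forward strand is the C of a CG while that of the reverse strand is paired with its G.
Prkcq, chr2:11124455-11124568: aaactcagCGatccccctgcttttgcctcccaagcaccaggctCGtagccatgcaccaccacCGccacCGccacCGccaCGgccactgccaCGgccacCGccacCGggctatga
Il6ra, chr3:89679063-89679209: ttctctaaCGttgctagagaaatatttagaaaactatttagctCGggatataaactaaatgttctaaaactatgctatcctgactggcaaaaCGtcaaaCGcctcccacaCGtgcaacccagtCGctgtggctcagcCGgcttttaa
Gata3, chr2:9781369-9781487: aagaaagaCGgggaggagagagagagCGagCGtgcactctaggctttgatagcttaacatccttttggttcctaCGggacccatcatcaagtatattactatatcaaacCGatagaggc
Pax5, chr4:44628635-44628917: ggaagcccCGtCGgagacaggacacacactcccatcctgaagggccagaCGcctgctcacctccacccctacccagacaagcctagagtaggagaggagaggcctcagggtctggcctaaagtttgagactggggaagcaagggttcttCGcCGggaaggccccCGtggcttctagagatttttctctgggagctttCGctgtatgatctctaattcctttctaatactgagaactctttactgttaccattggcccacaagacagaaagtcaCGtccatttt

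Prkcq encodes protein kinase C theta, which carries signals from the T-cell receptor, and its 9 measured CpGs lay in intron 1 of the gene (ENSMUSG00000026778.6). Il6ra encodes the alpha chain of the interleukin-6 receptor, and its 7 CpGs lay in intron 9 of its annotated transcript (ENSMUSG00000027947.7). Zbtb7b encodes ThPOK, the transcription factor that sets the CD4 helper fate, and its 14 CpGs lay within a coding exon, exon 2 of transcript Zbtb7b-001 (ENSMUSG00000028042.8). Gata3 encodes a transcription factor needed at several steps of T-cell development, and its 5 CpGs lay in intron 5 (ENSMUSG00000015619.9). Pax5 encodes the factor that holds B-cell identity, and 7 of the 8 CpGs in the stretch shown, in intron 6 of transcript Pax5-001, were covered in all 6 libraries (ENSMUSG00000014030.9). All of these places are from GENCODE vM1. Both strands were read at 27 dyads, 8 of Prkcq, 5 of Il6ra and 14 of Zbtb7b. Gata3 and Pax5 were read on the forward strand alone.

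The libraries held between 4776147 and 7696442 cytosine read-outs, and the median depth over the 69 cytosines was 1431 to 3439 reads. Depth differed far more between loci and strands than between libraries. On the forward strand of Il6ra the median depth was 51724 to 121149 reads, while on the reverse strand of Prkcq it was 27, 53 and 69 reads in the BS libraries and 52, 196.5 and 420 reads in the oxBS libraries. Reads carry no molecular identifiers, so intervals printed here cover counting error only. Lambda phage DNA added as a control gave unconverted shares of 0.0392% to 0.0625% for the unmodified control and 99.4% to 99.5% for the methylated control. The hydroxymethylated control was unconverted at 6.54%, 5.81% and 6.19% in the BS libraries and at 0.647%, 0.652% and 0.846% in the oxBS libraries, so that oxidation removed 90.1%, 88.8% and 86.3% of its BS signal. The 3 controls were told apart by these shares. For the T-cell libraries, the study estimated that the hydroxymethylated control carried little of its mark, although high purity had been expected. From a dot blot the study likewise proposes a strong drop of that mark in the control. The share of its signal removed by oxidation therefore rests on a small BS signal.

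In DP thymocytes BS exceeded oxBS at most of the CpG cytosines measured, a difference read here as 5hmC. Averaged over the 69 cytosines, the BS libraries were unconverted at 89.2%, 90.0% and 89.6% and the oxBS libraries at 78.0%, 76.6% and 78.4%, so that all 3 BS libraries lay above all 3 oxBS libraries. The difference was 11.9 ± 1.28 percentage points (SD, n = 3 pairs), which left 77.7% as 5mC and 10.4% as unmodified cytosine. In an exact two-sided sign-flip permutation test p was 0.25, and 3 pairs allow none smaller, while an exact permutation of the 6 libraries without the pairing gave p = 0.10, also its lower limit. The mean rested in part on the thinly read Prkcq reverse strand. Without that strand and without Pax5, a choice made after seeing the data, it was 9.48 percentage points.

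For single cytosines, a quasi-binomial logistic model of the unconverted and converted reads, with the replicate as a block and the spread moderated across cytosines, was fitted to all 461 cytosines, with Benjamini-Hochberg adjustment. BS exceeded oxBS at an adjusted p under 0.05 at 59 of the 69 CpG cytosines (85.5%) and fell below it at 3 (4.35%). Of the 392 non-CpG cytosines measured in the same reads, where little of either mark is known to occur in T cells, 12 were called with BS above oxBS (3.06%) and 15 with BS below (3.83%). Of the 59 cytosines, 57 were higher in BS in all 3 pairs, and 50 were called again whichever pair was left out. Among the 392 non-CpG cytosines, 80 were higher in BS in all 3 pairs and 52 were lower in all 3. The 3 BS libraries lay wholly apart from the 3 oxBS libraries at 60 CpG cytosines (87%), against 97 of the non-CpG cytosines (24.7%). The p-values are approximate, because the moderation pooled the spread over cytosines that share reads, and the sizes and the count of pairs carry more weight. The sizes at non-CpG cytosines were small: the median absolute difference was 0.0695 percentage points and 379 of the 392 were under 1, while 13 CpG cytosines were above 20 and 26 above 10.

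**Figure D1:**
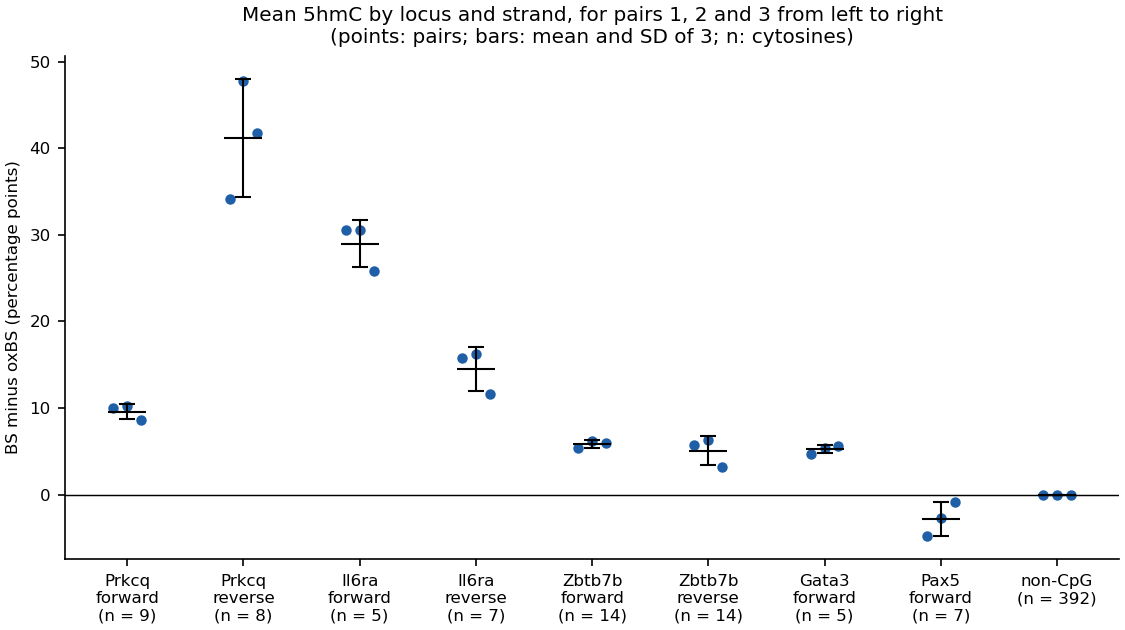
BS minus oxBS in percentage points (vertical axis) averaged over the cytosines of each locus and strand, with a point for each of the 3 pairs and bars for the mean and SD. Both strands of Il6ra and the reverse strand of Prkcq lie above 11 points in every pair, Zbtb7b and Gata3 lie between 3 and 7, Pax5 lies below 0 and the 392 non-CpG cytosines lie at 0.

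The loci differed in their 5hmC. Over all their cytosines the mean difference was 24.5 ± 3.27 percentage points at Prkcq, 20.6 ± 2.60 at Il6ra, 5.45 ± 0.862 at Zbtb7b, 5.28 ± 0.477 at Gata3 and -2.79 ± 1.97 at Pax5 (SD, n = 3 pairs each). Each locus gave the same sign in all 3 pairs, with p = 0.25 in the exact sign-flip test and also after adjustment over the 5 loci. Prkcq and Il6ra did not differ beyond their spread (3.91 ± 3.93 points, with Il6ra higher in pair 1), and neither did Zbtb7b and Gata3 (0.163 ± 1.10). Il6ra exceeded Zbtb7b by 15.1 ± 1.84 points and Gata3 exceeded Pax5 by 8.08 ± 1.51, in all 3 pairs. On the forward strand alone, the only one read at every locus, the order was Il6ra at 29.0 ± 2.71, Prkcq at 9.60 ± 0.863, Zbtb7b at 5.83 ± 0.449, Gata3 at 5.28 ± 0.477 and Pax5 at -2.79 ± 1.97, and each step held in all 3 pairs. The place of Prkcq thus depended on the strand that was read.

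**Figure D2:**
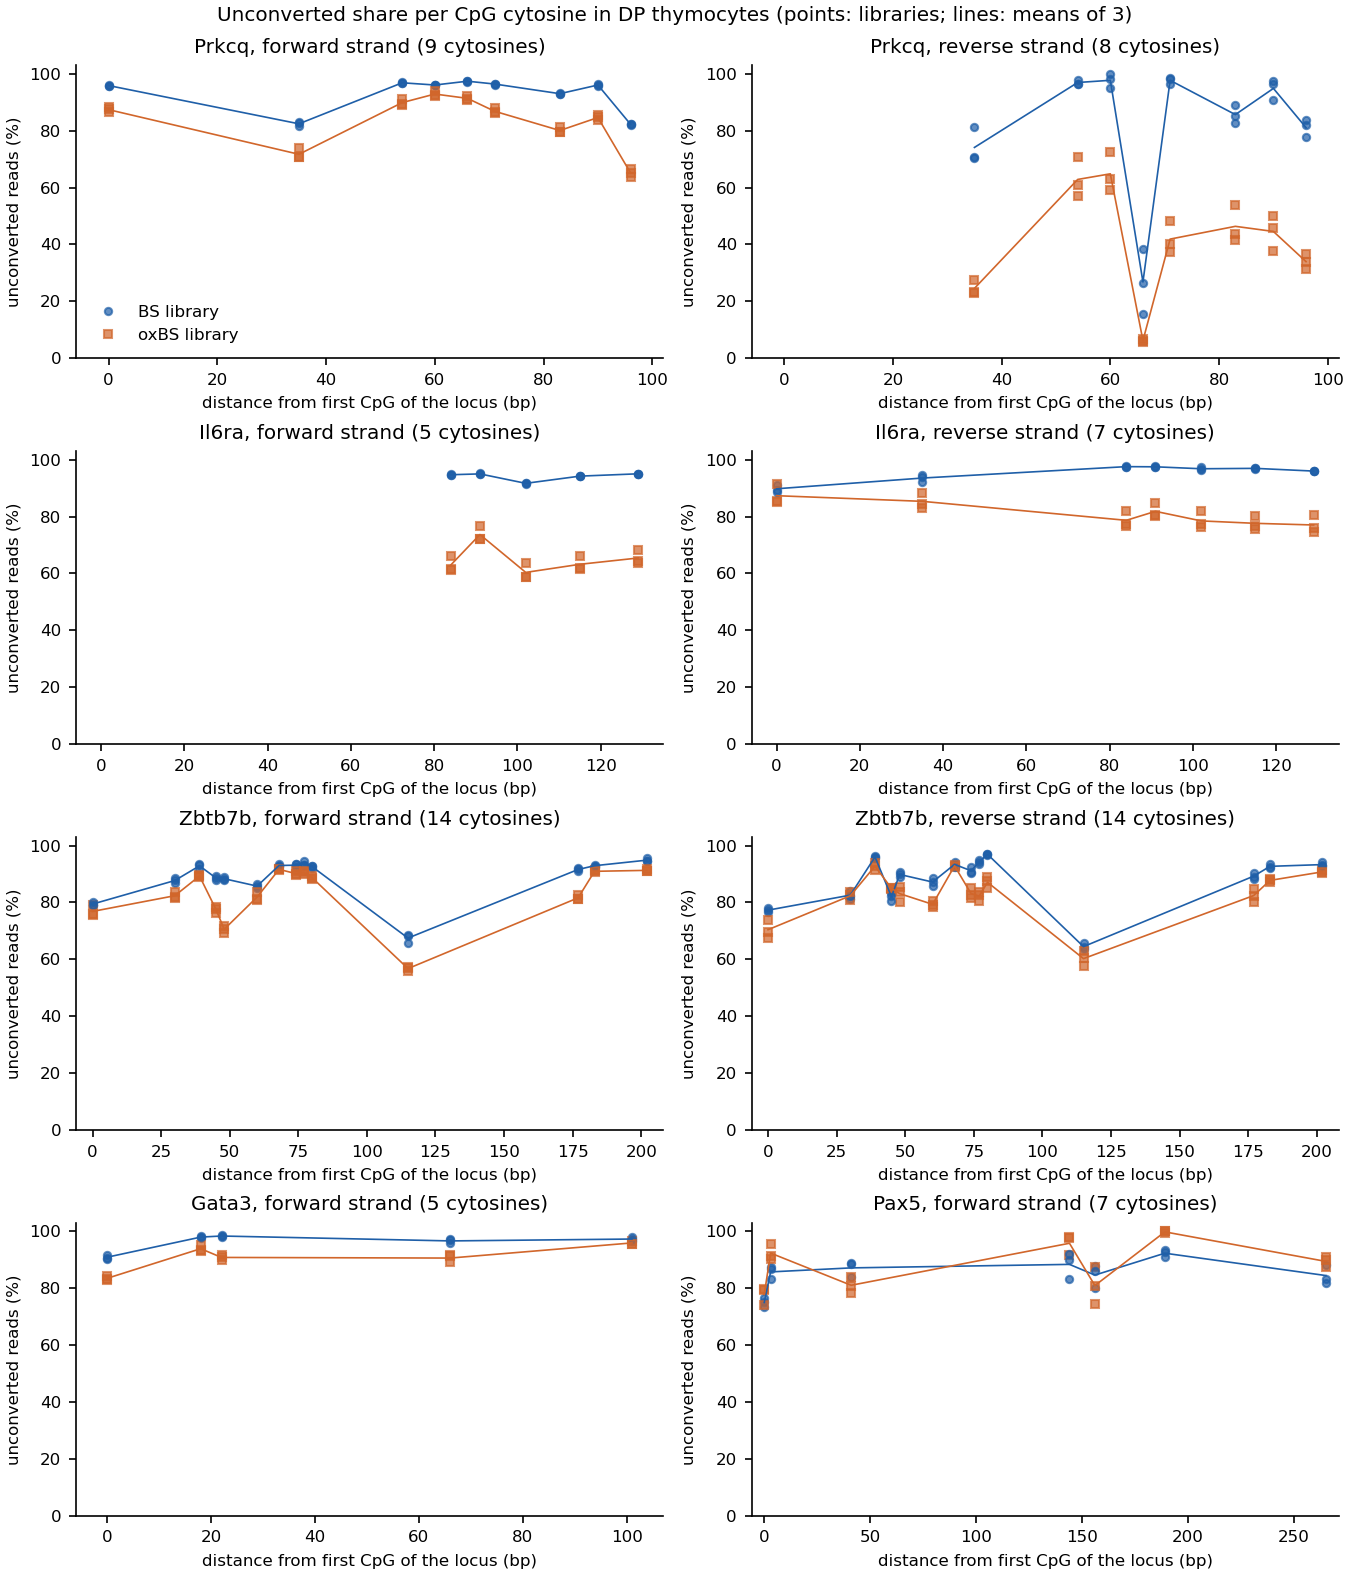
Unconverted reads in percent (vertical axis) at each CpG cytosine against its distance in base pairs from the first CpG of the locus, with blue points for the 3 BS libraries, orange squares for the 3 oxBS libraries and lines through the means. BS shares stay above 60% except at 1 cytosine of the Prkcq reverse strand, and the gap down to the oxBS squares, which is the 5hmC estimate, is widest on the reverse strand of Prkcq and on the forward strand of Il6ra.

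Il6ra had the highest 5hmC of any deeply read region. Its 5 neighbouring CpGs, from position 89679155 to 89679201 within 47 bases, were nearly all modified, with 5hmC of 21.3 to 31.7 percentage points on the forward strand. At position 89679155 on the forward strand, the highest of the locus, the BS libraries were unconverted at 95.01%, 94.6% and 94.5% and the oxBS libraries at 61.2%, 61.5% and 66.2%. The difference of 31.7 ± 3.01 points was 33.5% of the modified cytosine there, and no BS library overlapped any oxBS library. The cytosine at position 89679186 was similar, at 94.1%, 94.3% and 94.2% in BS and 61.8%, 61.7% and 66.1% in oxBS, a difference of 31.0 ± 2.51.

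The third of the highest Il6ra cytosines lay in an E-box, the hexamer CACGTG, a palindrome bound by basic helix-loop-helix factors. It was searched for on the forward strand, which covers both strands, across the covered stretch of each locus and with no other motif searched, and was found once, at chr3:89679171-89679176 in Il6ra. Of the windows of the same length (195 bases) along chromosome 3, 1.73% held it. The study had already reported an E-box in Il6ra, and the search covered every locus. That share therefore does not measure how unusual the find is. Both cytosines of its CpG are shown here 5′ to 3′ on their own strand, with the CG in capitals.
Il6ra E-box, forward cytosine 89679173: acgcctcccacaCGtgcaacccagtc
Il6ra E-box, reverse cytosine 89679174: gactgggttgcaCGtgtgggaggcgt
On the forward strand the BS libraries were unconverted at 91.7%, 91.7% and 91.6% and the oxBS libraries at 58.9%, 58.6% and 63.6%. This gave 5hmC of 31.3 ± 2.88 points and the lowest 5mC of the Il6ra cytosines, 60.4%. On the reverse strand the shares were 96.7%, 96.4% and 97.3% in BS and 77.2%, 76.2% and 81.9% in oxBS, with 5hmC of 18.3 ± 2.58 points. The E-box cytosines were close to those of the CpGs beside them on the same strand, apart from the CpG at 89679162, which was the lowest of the 5 on both strands at 21.3 ± 2.68 and 15.7 ± 2.17 points.

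The 2 outlying CpGs of Il6ra, read on the reverse strand alone, carried less 5hmC. The lowest was the cytosine at 89679072, with 89.4%, 88.8% and 91.1% in BS and 85.4%, 85.0% and 91.5% in oxBS. Its difference of 2.43 ± 2.51 points was within its spread and had the opposite sign in pair 3, although the model called it. At 89679107 the difference was 8.19 ± 2.33 points, positive in every pair. The mean of these cytosines was 5.31 ± 2.42 points, against 18.2 ± 2.61 for the 5 neighbouring CpGs on the same strand, which begin 49 bases further on. That split was made after the values were seen and has no test.

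The oxBS library of replicate 3 stood apart at Il6ra. Its shares were above those of both other oxBS libraries at all 12 Il6ra cytosines, by 4.75 percentage points on average, while BS library 3 differed from the other BS libraries by 0.254. At Zbtb7b the shift was 1.40 points and at Gata3 -0.584. Without replicate 3 the Il6ra mean was 22.1 percentage points.

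Prkcq gave unlike values on its strands. On the forward strand, read at 6128 to 12624 reads per library, 5hmC was 3.17 to 17.1 points over 9 cytosines, called with BS above oxBS at each, and the spread between pairs was small. The lowest was position 11124523, at 96.0%, 96.0% and 96.1% in BS and 92.1%, 92.6% and 93.9% in oxBS, a difference of 3.17 ± 0.851. On the reverse strand, read at 26 to 427 reads, 5hmC was 20.6 to 55.8 points over 8 cytosines, and 5mC was 40.7 ± 4.46% on average against 83.3 ± 0.936% on the forward strand. All 8 were again called and positive in every pair. Of all 69 CpG cytosines, 85.5% were called with BS above oxBS and 58 were positive in every pair.

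The 3 highest cytosines of Prkcq all lay on the reverse strand and are shown on that strand with the CG in capitals.
Prkcq reverse cytosine 11124499: ggtgcatggctaCGagcctggtgctt
Prkcq reverse cytosine 11124535: cgtggcagtggcCGtggcggtggcgg
Prkcq reverse cytosine 11124554: atagcccggtggCGgtggccgtggca
At 11124535 the BS libraries were unconverted at 96.3%, 98.1% and 98.6%, from 27, 54 and 74 reads, and the oxBS libraries at 48.1%, 37.4% and 40.2%, from 52, 198 and 423 reads. The 95% Wilson interval was 81.7% to 99.3% in BS library 1 and 35.1% to 61.3% in oxBS library 1, and the difference of 55.8 ± 6.68 points was the largest of the 69. Its forward partner at 11124534 had 96.1%, 96.6% and 96.6% in BS and 86.1%, 86.5% and 87.8% in oxBS, a difference of 9.57 ± 0.738. In these reads, few of them from the reverse strand, the dyad was almost fully modified on both strands. Its 5hmC estimates differed by 46.2 points between the strands.

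At 11124554 on the reverse strand the shares were 96.3%, 90.9% and 97.4% in BS and 50.0%, 37.8% and 45.9% in oxBS, a difference of 50.3 ± 3.55, against 11.4 ± 0.550 at its forward partner 11124553 (95.6%, 96.3% and 96.2% in BS, 83.8%, 84.7% and 85.4% in oxBS). At 11124499 they were 70.4%, 81.2% and 70.7% in BS and 27.5%, 23.2% and 23.0% in oxBS, a difference of 49.6 ± 7.76. In no case did the groups overlap. The reverse cytosine at 11124530, named after its values were seen, was the only CpG cytosine below 60% in BS, at 15.4%, 38.5% and 26.6%, while the mean of its forward partner was 97.4%.

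Depth moved with the strand and with the assay at Prkcq. The forward strand was read 28.2 to 467 times as deeply as the reverse strand, and the reverse strand was read more deeply in oxBS libraries 2 and 3 than in any BS library. Non-CpG cytosines of the same reverse reads were unconverted at 0.394% in BS and 0.200% in oxBS. With at least 100 reads in every library the reverse strand dropped out and Prkcq stood at 9.60 points. The part of depth in the strand difference was not tested.

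**Figure D3:**
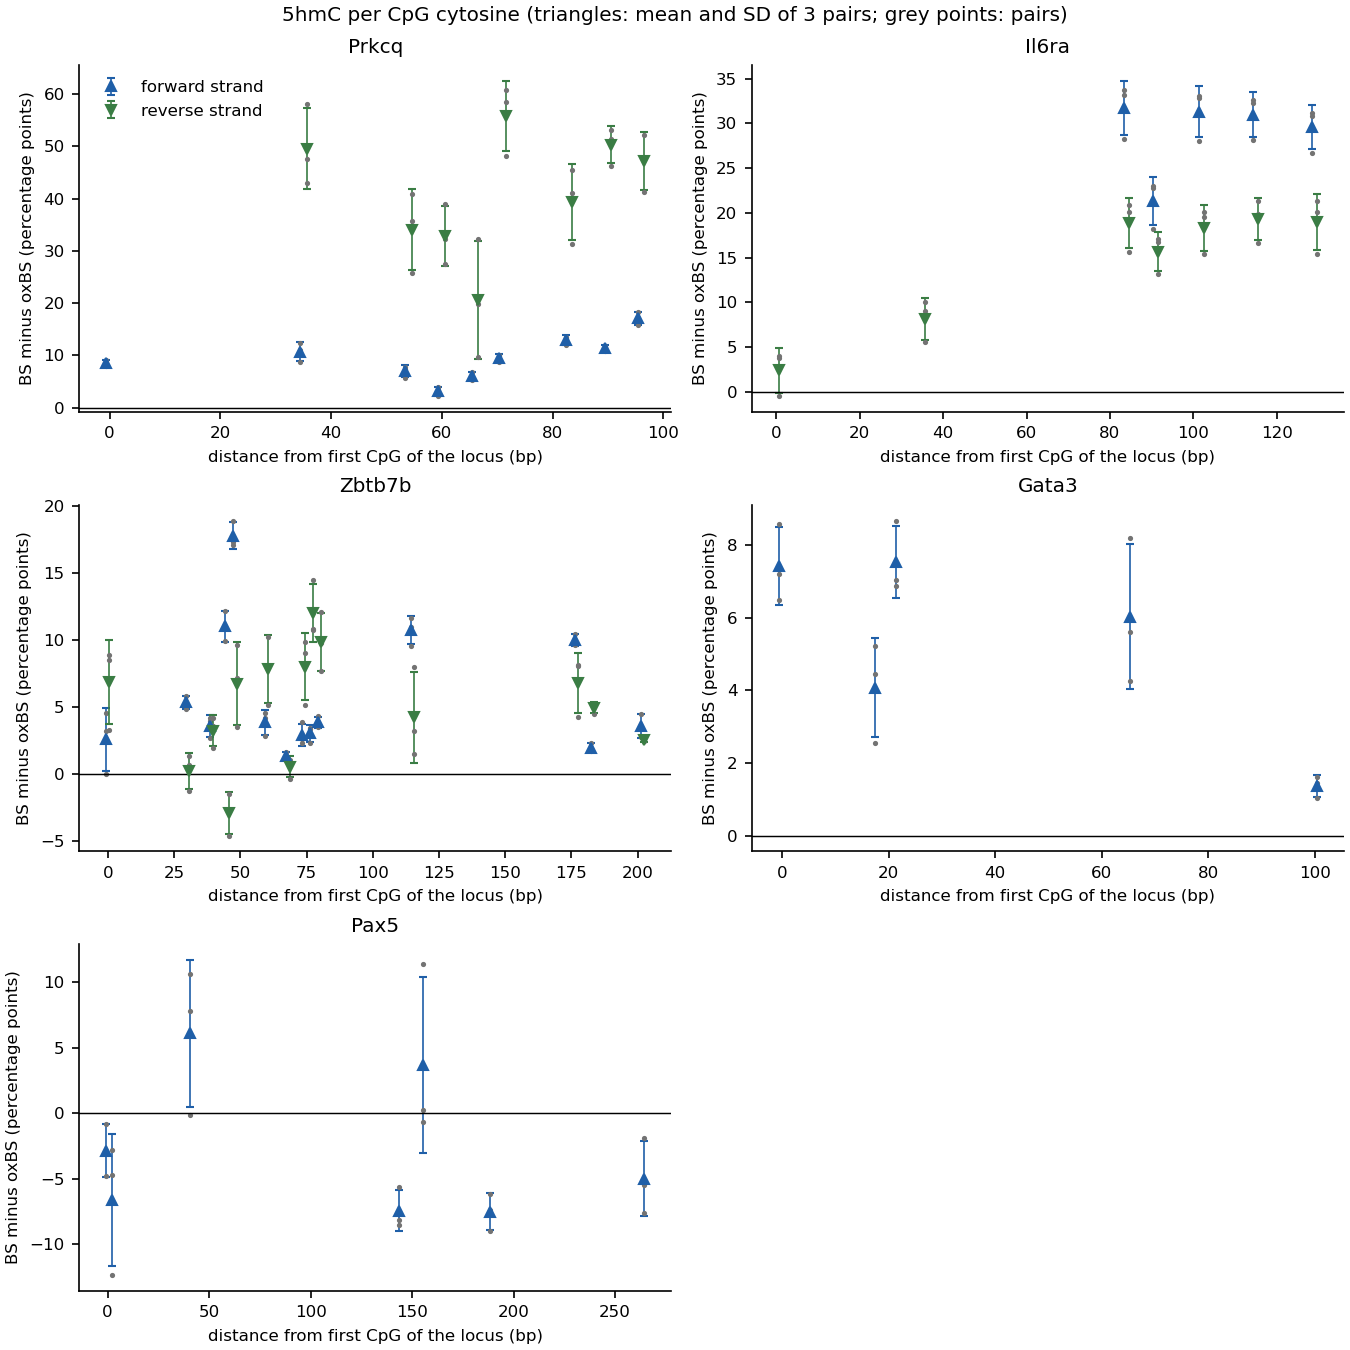
BS minus oxBS in percentage points (vertical axis, scaled to each locus) at each CpG cytosine against its distance in base pairs from the first CpG of the locus, with upward triangles for the forward and downward triangles for the reverse strand (mean and SD of 3 pairs) and grey points for single pairs. Reverse-strand values lie above forward ones at Prkcq and below them at Il6ra, cross at Zbtb7b, and 5 of 7 Pax5 cytosines lie below 0 in all pairs.

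At Zbtb7b 5hmC was low on average and uneven from one CpG to the next. Over 28 cytosines it ranged from -2.92 to 17.8 percentage points, with a median of 4.04. Of these, 24 were called with BS above oxBS, 1 with BS below and 3 not called. Over all 69 CpG cytosines, 85.5% were called with BS above oxBS. Both strands were read at 701 to 3476 reads. The strand means were alike, at 5.83 ± 0.449 points (forward) and 5.07 ± 1.65 points (reverse), and their difference of 0.763 ± 1.70 points was within its spread (exact sign-flip permutation p = 1).

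Single dyads of Zbtb7b differed between strands in opposite directions. The 4 cytosines of the dyads at 89184821 and 89184824, a pair of CpGs with a single base between them, show the widest contrast and are given on their own strands with the CG in capitals.
Zbtb7b forward cytosine 89184821: ggtttgcggctgCGacgggcaacagg
Zbtb7b reverse cytosine 89184822: cctgttgcccgtCGcagccgcaaacc
Zbtb7b forward cytosine 89184824: ttgcggctgcgaCGggcaacaggtcg
Zbtb7b reverse cytosine 89184825: cgacctgttgccCGtcgcagccgcaa
At 89184824 the BS libraries were unconverted at 88.0%, 88.1% and 89.0% and the oxBS libraries at 70.6%, 69.2% and 71.9%, a difference of 17.8 ± 0.999 that was the highest of the locus, while its reverse partner at 89184825 had 90.8%, 89.9% and 88.8% in BS and 83.6%, 80.3% and 85.3% in oxBS, a difference of 6.75 ± 3.08. At 89184821 the shares were 87.8%, 88.6% and 89.4% in BS and 77.9%, 76.4% and 78.5% in oxBS, a difference of 11.0 ± 1.15.

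Its reverse partner at 89184822 was the only CpG cytosine outside Pax5 with BS below oxBS in all 3 pairs, at 83.2%, 82.3% and 80.5% in BS and 84.7%, 85.0% and 85.1% in oxBS. The difference was -2.92 ± 1.57 points, and the call (adjusted p = 0.0335 in the quasi-binomial model) was lost whichever pair was left out. The dyad at 89184821 therefore had 5hmC on the forward strand and no positive difference on the reverse strand.

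Tested dyad by dyad, 5hmC was unequal on the strands at 18 of 27 dyads (66.7%) by the interaction of assay and strand in the quasi-binomial model, that is, on the scale of log odds, with Benjamini-Hochberg adjustment. Of these, 7 were Prkcq dyads with the reverse strand higher, and 11 were Zbtb7b dyads, 5 with the forward and 6 with the reverse strand higher. No Il6ra dyad was called by that model (adjusted p = 0.411 to 0.938 in the quasi-binomial model, and 0 of 5 at an unadjusted p under 0.05). On log2 ratios, also a log scale, limma called 1 of them, at 89679200 (adjusted p = 0.00899). In percentage points, tested with limma after seeing the data, 24 dyads were called (88.9%): all 8 of Prkcq with the reverse strand higher, all 5 of Il6ra with the forward strand higher, and the same numbers of Zbtb7b dyads in each direction as before.

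At Il6ra the strand difference was called at all 5 dyads in percentage points and at none in the quasi-binomial model. The test in percentage points took forward minus reverse within each pair, while the model blocked the replicate within each strand. Which of scale and blocking set the calls was not tested. In percentage points the forward strand exceeded the reverse by 5.67 to 13.0 points over the 5 dyads, in all 3 pairs at each. For the dyad with the E-box the excess was 13.4, 13.0 and 12.6 points in the 3 pairs, and for that at 89679155, whose reverse cytosine was unconverted at 97.5%, 97.7% and 97.5% in BS and 77.4%, 76.8% and 81.9% in oxBS, it was 13.7, 12.3 and 12.7. Forward minus reverse, the oxBS shares differed by -18.1 to -8.16 points over these dyads and the BS shares by -5.12 to -0.955. Averaged over the locus the strand difference was 14.5 ± 0.299 points, and over the 5 shared dyads alone 10.8. The reverse strand was read at 3296 to 17986 reads per library. By median depth the forward strand was read 15.0, 22.6 and 26.5 times as deeply as the reverse in the BS libraries. In the oxBS libraries it was read 3.06, 4.47 and 12.2 times as deeply. The part of depth in this strand difference was not tested.

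**Figure D4:**
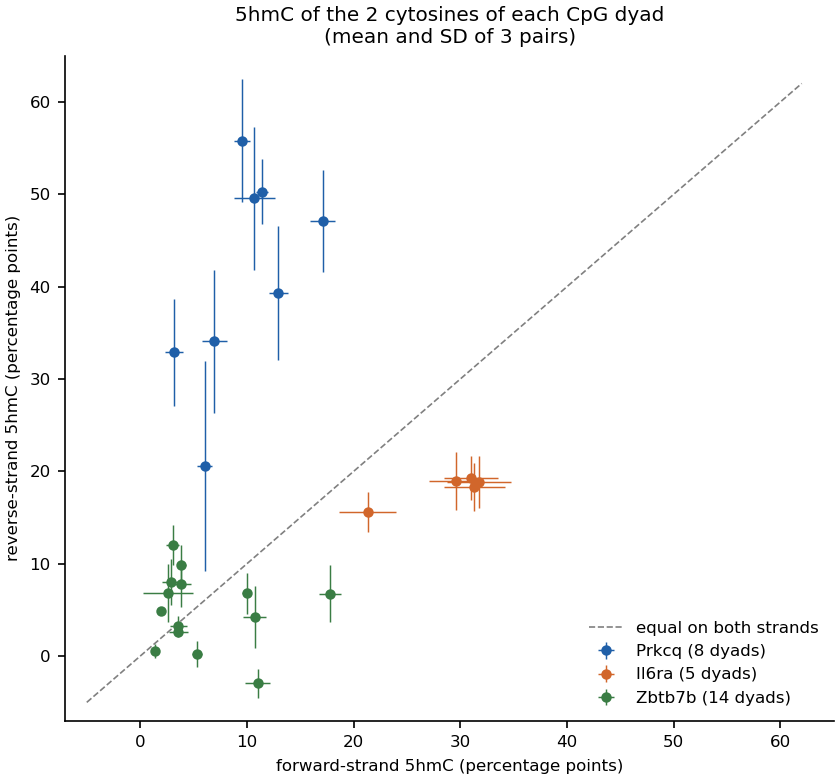
5hmC in percentage points on the reverse strand (vertical axis) against that on the forward strand (horizontal axis) for the 27 dyads read on both strands, with SDs over 3 pairs and a dashed line of equality. The 8 Prkcq dyads lie above the line, the 5 Il6ra dyads below it and the 14 Zbtb7b dyads on both sides.

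The correlation of 5hmC between the strands was computed over the dyads of each locus, and its differences between loci were not tested. Across the 14 Zbtb7b dyads Pearson's r between forward and reverse 5hmC was -0.136 and Spearman's rho -0.191, and across the 8 Prkcq dyads they were 0.589 and 0.548. Across the 5 Il6ra dyads they were 0.943 and 0.200. The Il6ra dyad at 89679162 stood below the others, at 21.3 points forward and 15.7 reverse. The others lay at 29.6 to 31.7 forward and 18.3 to 19.3 reverse. The correlations are descriptions over dyads that share libraries and reads. The pairs gave the same picture cytosine by cytosine: across the 28 Zbtb7b cytosines, r between the differences of 2 pairs was 0.866 to 0.945.

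Gata3 carried little 5hmC at heavily methylated CpGs. Its 5 forward-strand cytosines were unconverted at 90.9% to 98.4% on average in BS, and 5mC was 83.5% to 96.0%. BS exceeded oxBS at all 5 in every pair without overlap, and all 5 were called. Over all 69 CpG cytosines, 87% did not overlap and 85.5% were called with BS above oxBS. The highest was position 9781399, with 98.5%, 98.1% and 98.6% in BS and 91.6%, 91.0% and 89.9% in oxBS, a difference of 7.53 ± 0.994. Position 9781377 had 91.9%, 90.7% and 90.3% in BS and 83.3%, 84.2% and 83.1% in oxBS, a difference of 7.42 ± 1.07. Position 9781443 had 95.8%, 97.3% and 96.8% in BS and 91.6%, 89.1% and 91.2% in oxBS, a difference of 6.03 ± 2.00. These 3 did not differ from each other beyond their spread.

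The lowest Gata3 cytosine, the last of the stretch, lay beyond the other 4.
Gata3 forward cytosine 9781399: agagagagcgagCGtgcactctaggc
Gata3 forward cytosine 9781478: actatatcaaacCGatagaggcctct
At 9781478 the shares were 97.9%, 96.7% and 97.3% in BS and 96.5%, 95.6% and 95.7% in oxBS, a difference of 1.37 ± 0.292 (adjusted p = 0.0335 in the quasi-binomial model). This call was lost whichever pair was left out (adjusted p = 0.145 to 0.260 in the same model). Depth at Gata3 ran from 313 to 6418 reads. Of the 69 cytosines, the 5 of Gata3 were the only ones not covered in all 18 libraries of the series.

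Pax5 gave differences on the wrong side of 0 for an estimate of 5hmC. BS lay below oxBS in all 3 pairs at 5 of its 7 cytosines, and a share of 5hmC cannot be negative. The lowest was position 44628832, with 92.6%, 93.3% and 91.0% in BS and 100%, 99.5% and 100% in oxBS, a difference of -7.50 ± 1.41 (adjusted p = 3.35e-06 in the quasi-binomial model). The oxBS shares there came from 49, 202 and 55 reads, and their 95% Wilson intervals began at 92.7%, 97.2% and 93.5%.

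Position 44628787 had 83.3%, 91.9% and 90.0% in BS and 91.8%, 97.5% and 98.1% in oxBS, a difference of -7.42 ± 1.58 whose call was lost without replicate 2 (adjusted p = 0.00225 with it and 0.199 without it). Position 44628646 had 83.1%, 86.6% and 87.6% in BS and 95.5%, 91.3% and 90.3% in oxBS, a difference of -6.61 ± 5.06. Position 44628908 had 88.1%, 82.0% and 83.3% in BS and 90.0%, 87.4% and 90.9% in oxBS, a difference of -4.97 ± 2.88. The last 2 were not called, and in both the smallest gap was under 3 points.

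Position 44628643 had 76.6%, 75.0% and 73.4% in BS and 79.5%, 79.8% and 74.2% in oxBS, a difference of -2.84 ± 1.99 that was not called. The other cytosines were higher in BS on average. Position 44628684, which was called, had 84.0%, 88.6% and 89.0% in BS and 84.1%, 80.8% and 78.3% in oxBS, a difference of 6.11 ± 5.59. Position 44628799 had 80.2%, 87.8% and 86.0% in BS and 80.9%, 87.5% and 74.5% in oxBS, a difference of 3.69 ± 6.71. Both had pair differences of either sign.

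Pax5 was thinly read, at 44 to 1112 reads, with medians of 47, 203 and 55 reads in the oxBS libraries. The non-CpG cytosine 3 bases before the first Pax5 CpG, at 44628640, had the largest non-CpG difference of all, -6.17 ± 1.95 points, from 0%, 0.469% and 0.858% in BS and 6.82%, 8.17% and 4.84% in oxBS. With negative values set to 0 the locus mean became 1.44 points. The lowest Pax5 difference, -7.50 points, was larger in size than the means of Zbtb7b (5.45) and Gata3 (5.28). Whether a shift of this kind entered those loci was not tested.

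5hmC was higher where 5mC was lower and bore little relation to the total of both marks. Across the 69 cytosines, r between 5hmC and the oxBS share was -0.797 and between 5hmC and the BS share 0.0112. Within Zbtb7b these were -0.499 and -0.0311 over 28 cytosines. The oxBS share enters the 5hmC estimate and the points share libraries and reads, so the values are descriptions. As a share of modified cytosine, 5hmC made up 30.8% at Il6ra forward and 15.2% at Il6ra reverse, 10.3% and 50.3% at Prkcq, 6.57% and 5.77% at Zbtb7b and 5.49% at Gata3.

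Neighbouring bases and spacing, which the choice of cytosines did not use, showed no order common to all the loci. Zbtb7b cytosines after an A averaged 11.0 points over 2, those after a C 6.08 over 12 and those after a T 3.84 over 7. Those after a T were also lowest at Prkcq (10.7 over 1) and Pax5 (-7.05 over 2), but highest at Il6ra (31.0 over 1). Zbtb7b cytosines before a G averaged 4.87 over 12, those before an A 6.27 over 7 and those before a T 8.74 over 2. Those before a T were also highest at Prkcq (35.3 over 3) and Gata3 (7.53 over 1). At Il6ra and Pax5 those before a C were highest (26.2 and -0.695, over 2 each). The distance to the nearest CpG had Spearman's rho of -0.0333 with 5hmC across the 69 cytosines, again over points that share reads. At Il6ra it was -0.359 over 12, where the most isolated CpGs were the lowest.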

How the data were processed

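According to the study's methods and the labels, spike-in control DNA was added, each DNA was divided and one portion oxidised, targets were amplified after bisulfite treatment, and libraries were sequenced as read pairs on a MiSeq. The authors aligned reads to mm9 and lambda phage DNA with Bismark 0.7.12 and Bowtie 2 and extracted calls for every context, with a cutoff of 10 reads and without counting overlapping mates again. For each cytosine the deposited files give 2 counts, of reads left as C and of reads turned to T. They also hold a deposited percent, equal to the percent computed here from the counts. Nothing was normalized between libraries, and PCR duplicates were kept.

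Strand and context were read from NCBIM37. Positions with gaps under 1000 bp formed a locus, and cytosines were weighted equally. The quasi-binomial fit (R 4.3.3, limma 3.58.1 for squeezeVar) held the dispersion at 1 or above, was fitted within CpG and within other contexts, and was tested on simulated data. Exact permutation tests were two-sided and used numpy 2.4.6. Confidence intervals are 95% Wilson intervals. A share of 0 allows up to 3 counts of the total. Cytosines and tests were chosen with earlier results of these data known.

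Cytosines named with all values were the 3 highest and the 1 lowest of each locus by mean 5hmC, the 6 lowest with BS below oxBS in all 3 pairs, the 2 dyads of each locus with the largest strand difference and the CpG of the E-box. A cytosine of Zbtb7b that the rule picks is not reported here, so the cytosines named for that locus are not its complete set. The pairing comes from the labels, which say that each DNA was split. As a check, the deviations of same-numbered BS and oxBS libraries from their group means correlated at 0.0505 to 0.236 over the 69 cytosines, against -0.304 to 0.218 for other combinations. Over cytosines with at least 1000 reads these were -0.285 to 0.394 and -0.510 to 0.420. The ranges overlapped in both sets, so the check did not separate same-numbered libraries. Libraries of a group differed beyond counting error (chi-square per cytosine of 1.30 to 41.4), which does not by itself show independence. Each counted as a replicate because the study describes separate isolations from independent mice. The lambda sequence was not used here.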

Additional observations from a re-analysis of the deposited data

Results flagged for a closer look

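Signal appeared on chromosome 6 in 2 of the 6 DP libraries, outside the loci compared. BS library 2 covered 3 intervals there, at 70674813-70675065, 70685563-70685851 and 70693891-70694090, and its CpG cytosines were unconverted on average at 89.7%, 27.9% and 50.2%, over 24, 4 and 6 cytosines. The oxBS library 1 covered parts of the last 2 of these, with means of 23.2% over 2 and 60.3% over 3 cytosines. Median depth was 10 to 54 reads. Non-CpG cytosines of BS library 2 were unconverted at 0.630%, 8.71% and 4.67% in the 3 intervals, against 0.0818% and 0.456% in the 2 of oxBS library 1 and 0.208% over the loci in BS, and their part in the CpG shares was not tested. At the 2 cytosines of the middle interval read in both, the shares were 17.6% and 34.0% in BS against 21.4% and 25.0% in oxBS. At the 3 cytosines of the last interval read in both, BS was below oxBS, at 52.4%, 44.4% and 18.3% against 56.5%, 65.2% and 59.1%. The libraries come from different replicate numbers, so no 5hmC was estimated.

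Lambda positions beyond the 3 controls were covered in BS library 1 (41 positions, all unconverted at 100%, median of 23 reads) and in oxBS library 1 (47 positions, 33.6% of reads pooled, median of 117 reads). Apart from the totals of cytosine read-outs per library, they enter no other value of the report.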

How the results depend on the processing

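Of 125 recomputed values, 101 kept their direction and stayed within 1 SD of the pairs (for counts, within 1.5 times), 22 moved further and 2 changed sign. Some of the 101 could not move, because the setting kept the same cytosines or, for a mean, ignored only the pairing. The cause of a move was not tested unless stated. With at least 100 reads the mean over all CpG cytosines was 9.48 percentage points and Prkcq 9.60, because the thinly read cytosines dropped out. No Pax5 cytosine was left. There were 0 calls with BS below oxBS in the quasi-binomial model, 1 at an unadjusted p under 0.05, and 11 of 19 dyads were called. The Zbtb7b cytosine at 89184822, with at least 763 reads in every library, stayed in the fit and lost its call. With at least 1000 reads Prkcq was again 9.60, with 35 calls with BS above oxBS and 0 below (0 also unadjusted), each of the 35 cytosines left being called. Pooling reads over cytosines gave 21.6 over all CpG cytosines, 10.4 at Prkcq and 25.7 at Il6ra, by the weight of the deeply read strand, and non-CpG shares of 0.231% in BS and 0.266% in oxBS. Dyads covered on both strands alone gave 14.7 over all CpG cytosines, 23.6 at Il6ra and an Il6ra strand difference of 10.8. Without the Prkcq reverse strand and Pax5 the mean was 9.48. An oxidation efficiency of 0.9 raised the mean to 13.2 and Gata3 to 5.87. The 2 libraries that cover chromosome 6, BS library 2 and oxBS library 1, gave a single unpaired difference of 4.50 at Gata3. Holding differences at 0 or above turned Pax5 to 1.44. Adjusting over CpG cytosines only gave 5 calls with BS below oxBS.

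Without the replicate block, that is, ignoring the pairing, 57 cytosines were called above and 5 below, and 17 dyads. The means do not change without it. Leaving out a replicate gave 50 to 56 calls above, 1 to 2 below (1 without replicate 2), 13 to 19 dyads, and a Zbtb7b strand difference of -0.217 to 1.32 points, negative without replicate 3.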
